A study of Mus musculus with 20 samples.

Results

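Midnolin, encoded by Midn, was followed with 9 immediate-early genes, Fos, Fosb, Egr1, Jun, Junb, Ier2, Ier3, Nr4a1 and Atf3. The livers were from mice carrying a Midn gene trap and from WT controls. The genes were taken by symbol from the male and the female RNA-seq tables and joined by Ensembl identifier. Each symbol matched 1 row per table, so that all 10 genes were among the 56884 rows of the male table and among the 18149 rows of the female table. RNA-seq covered 12 livers, 3 WT and 3 Midn-T in each sex, and ATAC-seq covered 8 further samples, 2 of each genotype in each sex, which were not used here.

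In the Midn XTR allele an invertible cassette with a GFP reporter sits in intron 2 and the gene is still expressed. The paper calls the control livers wild-type (WT) and does not say whether they carried this allele. Midn-T livers carried the TR allele, in which Cre driven by the Albumin promoter has turned the cassette so that transcription is trapped. All mice were 11 to 14 weeks old, and the line was made in C57BL/6J embryos. The paper describes Albumin-driven Cre as trapping Midn selectively in hepatocytes. It also reports no reads past exon 2 of Midn in Midn-T livers. Which cells of these livers kept the untrapped allele was not measured here. In such bulk tissue fewer cells of a type and less RNA per cell cannot be told apart. Whether the WT mice also carried Cre is not given in the sources used here.

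Immediate-early genes are transcribed within minutes of a stimulus, without new protein synthesis, from promoters read by factors already in the nucleus such as SRF with its partners and CREB. Their mRNAs and proteins are short-lived, and most encode transcription factors that then act on later genes. Midnolin binds many of these proteins through its Catch domain and brings them to the proteasome without the usual need for ubiquitin, and Midn is itself induced by stimuli. In liver the same genes respond to growth signals, cytokines, feeding and injury.

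The value for each gene was its mean normalized count, averaged by the authors over the 6 livers of 1 sex, both genotypes together. It has no error and no replicate check, and no difference described here was tested. A Midn-T against WT value is not given, since the authors' own comparisons were not used here. To set genes side by side, the mean was divided by the length of each gene's annotated exons, and this quantity, the mean normalized count per kb, is called the level below.

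Sequences before the start sites are shown first, because these promoters are where a stimulus is read. The motifs looked for on both strands were the CArG box bound by SRF, the cAMP response element TGACGTCA and its core TGACG bound by the CREB and ATF family, the AP-1 site (TGA and TCA with any 1 base between them), the EGR site GCGNGGGCG, the SP1 site GGGCGG, the TATA box, read as TATAA, and the NR4A site AAAGGTCA. The CArG box was read as CCWWWWWWGG, with W standing for A or T. Only exact matches were counted, so a gene with no match may still hold a variant site. The core lies within the full element, and some SP1 letters lie within the EGR site. RefSeq promoter windows, reaching from 250 bases before to 50 bases after the start, were at hand for 8 of the 10 genes, with 2 windows for Midn. The RefSeq table is of build GRCm38.p6, and each of these 9 windows matched the GRCm39 genome at 1 place.

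Counts are of genes, a gene counting once if any of its windows held the motif, and the shares beside them are of single windows. The core TGACG was present in 6 of the 8 genes, Midn, Fos, Fosb, Junb, Nr4a1 and Atf3, against 20.8% of all 32851 windows in the RefSeq table. On the gene's own strand only, 3 of the 8 held it, against 12.4%. The stretches that carry it are printed 5′ to 3′ along each gene's strand, with the core or its reverse complement in capitals.
Midn, chr10:79983995-79984029, plus strand: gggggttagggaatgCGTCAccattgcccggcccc
Fos, chr12:85520520-85520617, plus strand: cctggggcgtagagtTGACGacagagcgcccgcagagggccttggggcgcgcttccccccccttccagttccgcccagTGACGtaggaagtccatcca
Fosb, chr7:19044011-19044045, minus strand: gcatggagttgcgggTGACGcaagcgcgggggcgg
Junb, chr8:85705464-85705498, minus strand: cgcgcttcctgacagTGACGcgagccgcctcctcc
Nr4a1, chr15:101164479-101164706, plus strand: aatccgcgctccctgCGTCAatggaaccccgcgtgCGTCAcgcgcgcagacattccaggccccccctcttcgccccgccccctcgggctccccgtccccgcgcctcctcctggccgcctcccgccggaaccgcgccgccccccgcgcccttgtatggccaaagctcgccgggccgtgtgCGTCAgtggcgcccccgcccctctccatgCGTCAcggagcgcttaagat
Atf3, chr1:190915531-190915552, minus strand: ctattaatagcattaCGTCAgc
Coordinates are GRCm39, and the Midn stretch lies before the upstream of its 2 RefSeq starts. Nr4a1 held 4 cores and Fos 2, and the other 4 genes held 1 each. The 9 windows were rich in G and C, from 54.0% to 72.3% beside a median of 52.7% over all windows, and the part of base composition in these counts was not tested.

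The full cAMP response element and the CArG box were in none of the 9 RefSeq windows, against 1.79% and 1.63% of all windows. A wider window, the 500 bases before the start of the canonical transcript, was read from GRCm39 for all 10 genes. There Fos and Fosb each held a CArG box, against 2.76% of 21770 protein-coding genes, and Ier2 held the full element, against 1.96%. The stretches are given with the motif in capitals, again along the gene's strand.
Fos, CArG box, chr12:85520345-85520374, plus strand: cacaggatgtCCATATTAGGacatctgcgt
Fosb, CArG box, chr7:19044223-19044252, minus strand: tggccgagctCCTTATATGGctaattgcgt
Ier2, cAMP response element, chr8:85389509-85389536, minus strand: ggtgttgcagTGACGTCActctcagtat
Counted from the start, with -1 the base just before it, the Fos box lay from -303 to -294, the Fosb box from -266 to -257 and the Ier2 element from -43 to -36. In this wider window 7 of the 10 genes held the core, against 25.8% of genes, the exceptions being Midn, Ier3 and Atf3. The canonical Midn transcript, Midn-211, starts in the first intron of the longer form, so its window was not the one shown above.

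Of the other motifs, the SP1 site was in 7 of the 8 genes, all but Junb, and in 8 of their 9 windows, against 35.7% of all windows. The TATA box was in 3 genes, Fos, Junb and Ier3, against 24.9%, and the EGR site in 2, Fosb and Nr4a1, against 5.55%. The Junb TATA box lay after the RefSeq start, though from -30 to -26 when counted from the canonical start. In the part before the RefSeq start 2 genes held a TATA box, against 22.8% of windows. The AP-1 site and the NR4A site were in none, against 7.81% and 1.51%. In the 500 bases upstream, Fos held an AP-1 site, against 12.3% of genes, and 5 of the 10 held a TATA box, against 40.9%. These are matches of letters only, and no binding was measured.

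Midn lies on chromosome 10 of GRCm39, from 79984087 to 79994202 on the plus strand. The study counts 8 exons, as the annotated transcript Midn-202 has, and exons were numbered by that form. Its exon 1 has 97 bases and no coding sequence. Exon 2 has 632 bases, 236 of them coding. Intron 2 has 1064 bases, and 78 complete codons of 465 lie before it, so that 16.9% of the coding bases precede the cassette. Exon 8 alone spans 2004 bases and is more than the first 7 exons together. Reads from exons 1 and 2 of a trapped transcript still count towards Midn, so its mean over the 6 livers of a sex mixes whole and trapped transcripts.

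**Figure D1:**
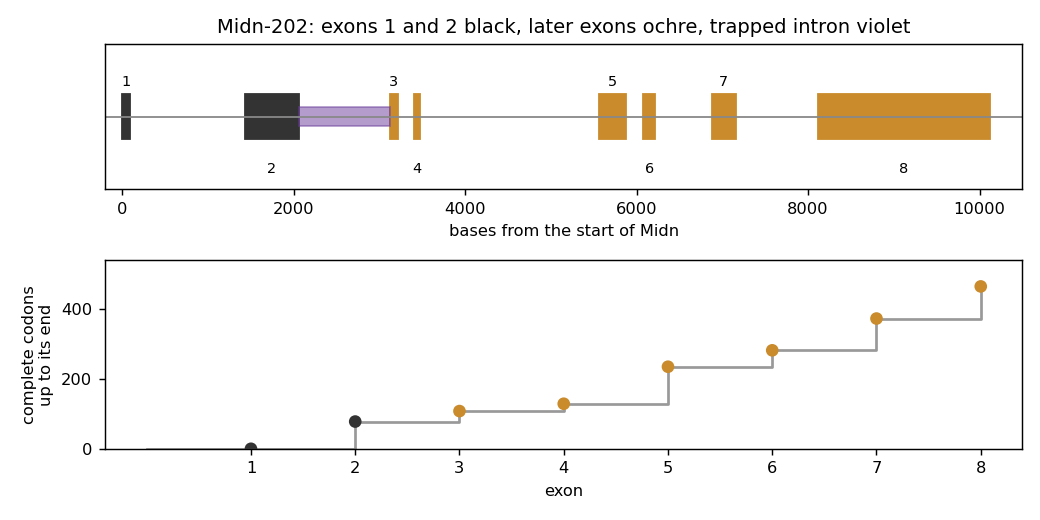
Exons of the Midn-202 transcript. The upper panel draws exons to scale against the distance in bases from the start of the gene, with exons 1 and 2 in black, exons 3 to 8 in ochre and the intron of 1064 bases that holds the cassette in violet. The lower panel gives the number of complete codons up to the end of each exon, 78 after exon 2 and 465 after exon 8.

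Midn stood above the median protein-coding gene in both tables. Its mean normalized count was 1672 in males and 1357 in females. This placed it at the 86.9th percentile of 21667 protein-coding genes in the male table and the 75.4th of 13621 in the female table. Among protein-coding genes in both tables, its percentile was 79.1 in males and 75.4 in females. From public data the paper describes Midn as low in young adult hepatocytes and rising with age. The means here are of whole liver with WT and Midn-T averaged, and ages were not compared. The level of Midn was 381 per kb in males and 309 in females, the fifth of the 10 genes in each. This level divides by all annotated exons, although trapped transcripts lack the exons after the cassette. It can therefore understate Midn beside the other genes, and so can every rank of Midn and ratio to Midn given here. How far was not tested. Among the 13613 other protein-coding genes in both tables, the means closest to those of Midn were of Usp16, Fam135a and Pex11a, at distances of 0.0165, 0.0300 and 0.0342 on a log2 scale over the 2 tables. With 2 points per gene this is likeness in mean count alone.

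Above Midn stood Egr1, Jun, Junb and Ier2 in both sexes. Egr1, a zinc finger factor induced by growth factors, had a mean of 2943 in males and 3218 in females. Its level was 655 and 716 per kb, which is 1.72 times that of Midn in males and 2.32 times in females. It was the highest of the 10 genes in females and the second in males.

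The Jun proteins form the AP-1 factor with each other or with Fos proteins. Jun itself had a mean of 2379 in males and 1372 in females, with levels of 746 and 430 per kb. Junb, which often tempers the activity of Jun, had means of 1215 and 1516 and levels of 510 and 637 per kb. Their order was exchanged between the tables, with Jun at 1.46 times the level of Junb in males and at 0.676 times in females.

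The Fos proteins cannot pair with themselves and need a Jun partner. Fos had a mean of 559 in males and 345 in females, with levels of 237 and 146 per kb. Fosb was far lower, with means of 118 and 31.9 and levels of 18.8 and 5.10 per kb, the last of the 10 genes in each sex by this length. Fos exceeded Fosb 12.6-fold in males and 28.7-fold in females. This ratio depends on the length taken, and over 5 ways of setting it the lowest values were 4.23-fold and 9.63-fold. Against Jun, Fos stood at 0.318 in males and 0.340 in females, values close to each other in the sexes. By the other lengths this ratio was as low as 0.207 in males and 0.221 in females. Against Junb it stood at 0.465 in males and 0.230 in females.

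Atf3, a stress-induced factor of the ATF family that pairs with Jun proteins, had a mean of 362 in males and 107 in females. Its levels were 148 and 43.8 per kb. Midn exceeded it 2.57-fold in males and 7.05-fold in females, and Junb exceeded it 3.44-fold and 14.5-fold. Over the 5 lengths the first ratio ran from 1.80 to 4.62 in males and from 4.94 to 12.7 in females, and the second from 1.77 to 3.94 and from 7.46 to 16.6.

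Nr4a1, an orphan nuclear receptor that needs no known hormone to act, had a mean of 995 in males and 419 in females. Its levels were 91.2 and 38.4 per kb, but this depends on the length taken. The annotated exons of its 29 transcripts span 10903 bases, whereas the canonical transcript has 2548, and with that length its levels were 390 and 164 per kb. In the annotation used here for lengths, a long noncoding RNA, Gm56721, overlaps Nr4a1 on the same strand. The authors counted on an earlier annotation, and whether it holds Gm56721 was not checked. If it does, reads there could be split or lost, so the Nr4a1 values are uncertain.

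The 2 remaining genes encode small proteins. Ier2, a nuclear protein that takes part in transcription, had means of 936 and 864 and levels of 614 and 567 per kb. Ier3, linked to cell survival, had means of 33.0 and 28.3 and levels of 29.0 and 24.8 per kb. Ier2 exceeded Ier3 21.2-fold in males and 22.8-fold in females.

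From the highest to the lowest, the order in males was Jun, Egr1, Ier2, Junb, Midn, Fos, Atf3, Nr4a1, Ier3 and Fosb. In females it was Egr1, Junb, Ier2, Jun, Midn, Fos, Atf3, Nr4a1, Ier3 and Fosb. The 10 genes spanned a 39.6-fold range in males and a 140-fold range in females. Neighbours were often close. Egr1 exceeded Ier2 by 1.07-fold in males, and Atf3 exceeded Nr4a1 by 1.14-fold in females. Whether such neighbours differ beyond the spread between livers was not tested, since the tables hold no value per liver. Over 5 ways of setting the length, Fosb and Ier3 held the last 2 places in each sex. Ier3 was the last by 4 of the 5 in males and by 1 in females, where the means were not divided by length, and Fosb was the last by the others. Midn ranged from 3 to 5 in males and from 4 to 5 in females. The places of the other genes also moved, that of Nr4a1 from 5 to 8 in males and from 6 to 8 in females. In females Nr4a1 stood above Atf3 by every way other than the annotated exons, so their order given above rests on that length.

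**Figure D2:**
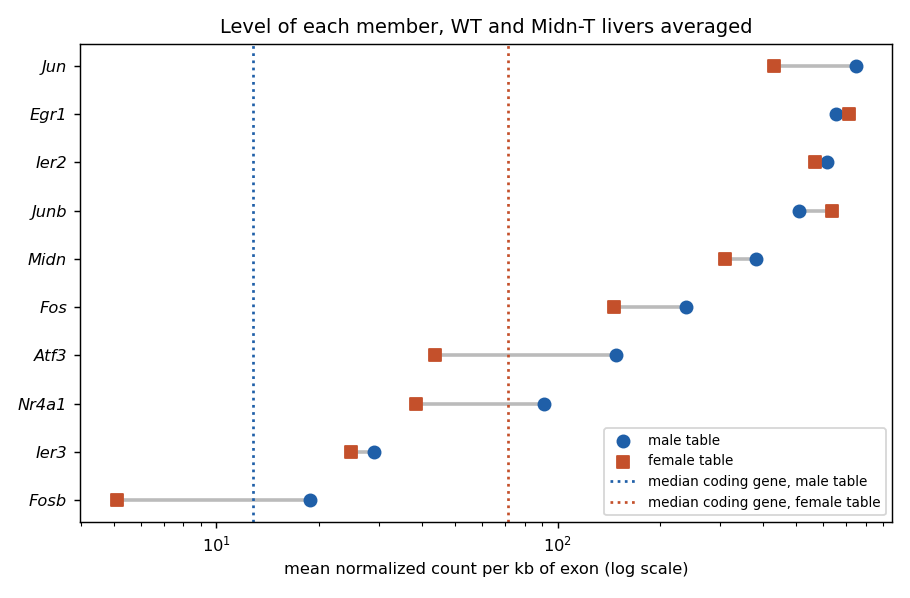
Level of each gene in males (blue circles) and females (orange squares), as mean normalized count per kb of annotated exon on a log axis, over 6 livers of each sex with WT and Midn-T averaged. Dotted lines are the medians of protein-coding genes, 12.8 in the male table and 71.5 in the female table, and the grey bars join the 2 values of a gene. Midn lies at 381 and 309 and Fosb at 18.8 and 5.10.

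Read against other genes, the level of all 10 exceeded that of the median protein-coding gene of the male table, and 6 exceeded that of the female table. The 2 medians are not alike, because the male table also lists genes with hardly any reads. Among the genes in both tables, 8 were above the male median and 6 above the female median. The genes below the female median were Fosb, Ier3, Nr4a1 and Atf3. By mean count, without division by length, 9 of the 10 were above the male median and 5 above the female median. Among the genes in both tables these counts were 7 and 5. By mean count Fos was also below the median of the female table, at percentile 44.2. Ier3 was below that of the male table, at percentile 45.8.

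The sexes were set side by side after scaling each table to a sum of 1000000. The 2 tables were normalized separately, so sex cannot be told apart from any other difference between them, and the differences were not tested. Of the 10 genes, 8 were lower in females and 2, Egr1 and Junb, were higher. Among 13614 protein-coding genes, 48.3% were lower in females or equal. The median log2 ratio of female to male was -0.52 over the 10 genes, beside 0.011 over 13614 protein-coding genes.

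Fosb had the lowest ratio, 3.75-fold lower in females, a log2 ratio of -1.91. Atf3 was 3.44-fold lower, at -1.78, and Nr4a1 was 2.41-fold lower, at -1.27. These 3 of 10 were the genes at least 2-fold lower in females, against 1.42% of the 13614 genes. None of the 10 was at least 2-fold higher in females, against 2.38% of genes. The 13614 genes are those in both tables, and the female table starts at a mean of 6.61. Genes low in females can therefore drop out of these shares.

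Jun and Fos followed with log2 ratios of -0.82 and -0.72, and with the former 3 they lay below the 5th percentile of all genes, which was -0.51. Midn stood at -0.32, Ier3 at -0.25 and Ier2 at -0.14, Egr1 at 0.11 and Junb at 0.30. These last 5 lay between the 5th percentile and the 95th, which was 0.72. The 5 genes with the lowest ratios thus included both Fos genes, but of the Jun genes Jun and not Junb.

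**Figure D3:**
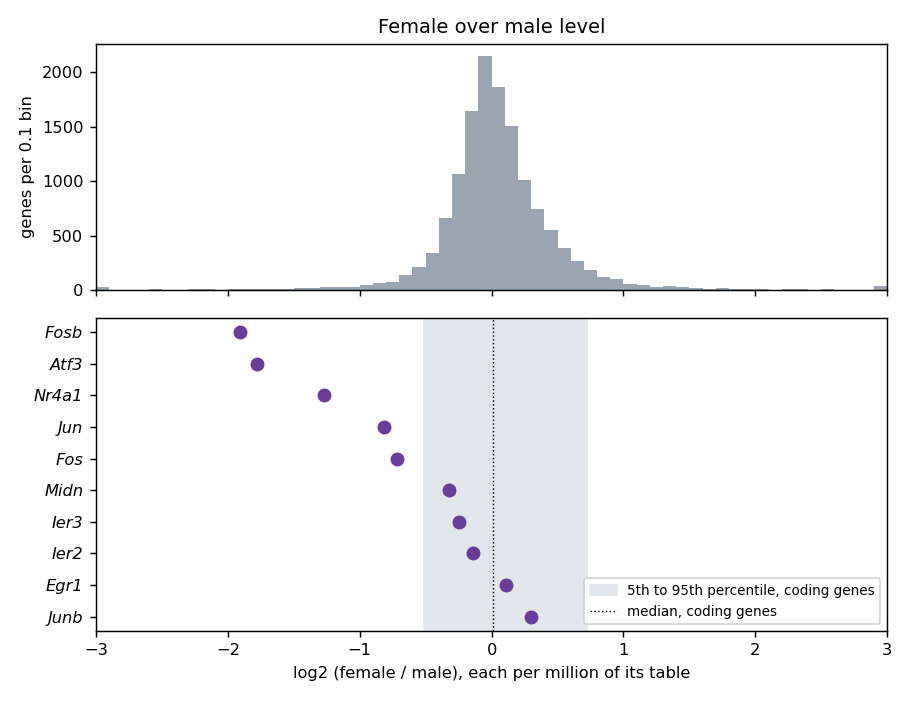
Log2 ratio of the female to the male mean, each scaled to a table sum of 1000000. The upper panel counts 13614 protein-coding genes in bins of 0.1, with values past either end of the axis placed in the end bins, and the lower panel shows the 10 genes as points over the span from the 5th to the 95th percentile in grey. Fosb, Atf3, Nr4a1, Jun and Fos lie to the left of the grey span.

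The wider family was read in the same way. Of 36 other immediate-early genes, 36 were listed in males and 32 in females. The 4 with no row in the female table, whose lowest mean was 6.61, were Egr2, Egr3, Arc and Fosl1, with male means of 15.7, 7.59, 2.83 and 0.445. They have no ratio, and the values below leave them out, so that low genes can drop out through their female value. Over the 32 genes in both tables the median log2 ratio was -0.16, and 22 were below 0. Of the 13614 protein-coding genes, 48.3% were at or below 0. Whether the 2 lists differ was not tested. Among the 32, 1 gene was at least 2-fold lower in females, Dusp1, a phosphatase that turns off MAP kinases, at -1.04, and none was 2-fold higher. Egr2, a relative of Egr1, would be lower by 2.41-fold or more if its female mean were at most the lowest one listed. For Egr3, Arc and Fosl1 the same ratio of the male mean to that lowest mean was 1.17, 0.435 and 0.068. Why these genes have no female row is not known. Ranking these 32 genes with the 10, Fosb, Atf3 and Nr4a1 held the first 3 places from the lowest ratio. The other NR4A receptors, Nr4a2 and Nr4a3, had log2 ratios of -0.80 and -0.80. At the other end Klf10 had 0.77, Zfp36l1 0.59 and Klf6 0.40.

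The highest levels among these 36 genes were those of mRNA decay factors. Zfp36, which binds AU-rich mRNA, had 1484 per kb in males and 1465 in females. Zfp36l1, its close relative, had 1247 and 1903 per kb. Dusp1 was the third in males with 1088 per kb, and Mcl1, a survival protein, was the third in females with 1070 per kb. The lowest in males were Egr3, Arc and Fosl1, with 1.61, 0.811 and 0.219 per kb. The lowest listed in females were Ier5l, Nr4a3 and Nr4a2, with 5.76, 2.74 and 2.18 per kb. The median over the list was 107 per kb in males and 124 in females, and 8 of these genes exceeded Midn in each sex.

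The kinases and factors that act upstream were all listed, 17 of 17 in both sexes, and varied less. Their median level was 96.5 per kb in males and 111 in females. Among the highest were Mapk14 and Elk4, with 580 and 402 per kb in males and 533 and 371 in females. The lowest were Mrtfa, Crem and Elk1, with 60.8, 47.4 and 33.6 per kb in males and 49.4, 54.9 and 32.3 in females. The median log2 ratio was -0.072, and none of the 17 was 2-fold apart in either direction.

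The AP-1 and ATF partners, of which 18 were listed in males and 17 in females, had median levels of 113 and 121 per kb. Atf5 and Atf4 were among the highest, with 1416 and 931 per kb in males and 1981 and 833 in females. The lowest in males were Batf, Jdp2 and Fosl1, with 7.26, 4.32 and 0.219 per kb, and in females Batf2, Batf and Jdp2, with 8.27, 6.63 and 4.67. The median log2 ratio was -0.055, with none of 17 at least 2-fold apart. Fosl1 and 3 further genes also stand among the other immediate-early genes, and 1 stands among the upstream factors.

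**Figure D4:**
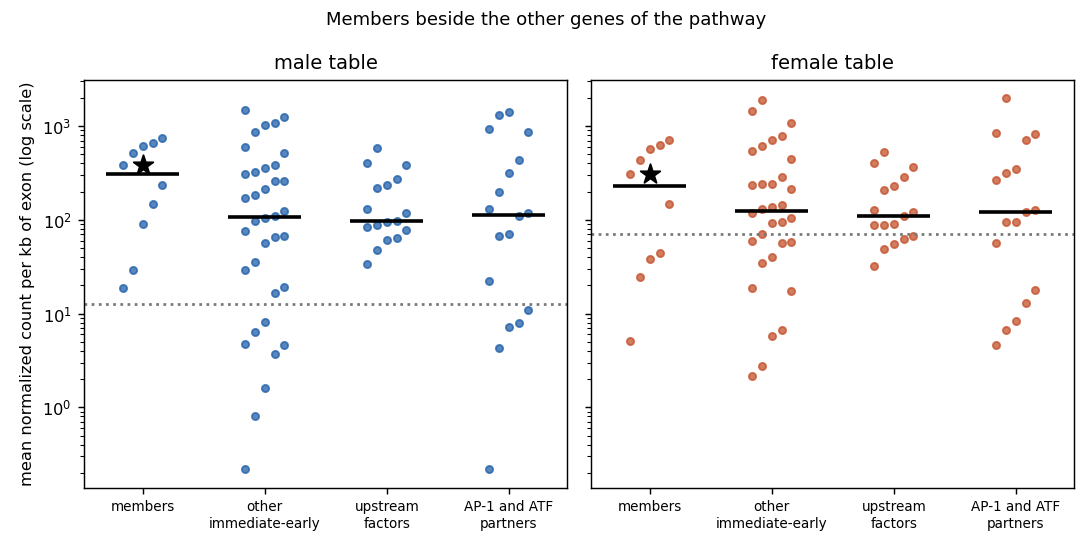
Levels in males (left) and females (right) as mean normalized count per kb on a log axis, for the 10 genes followed here (members), 36 other immediate-early genes, 17 upstream factors and 18 AP-1 and ATF partners, 1 point per listed gene. Black bars are list medians, the star is Midn and the dotted line is the median protein-coding gene; the medians of the 3 further lists lie between 96.5 and 124 per kb.

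Markers of cell types were read in the same tables. Of 6 hepatocyte markers 5 were listed by symbol, with a median of 44358 per kb in males and 41290 in females. Kupffer cell markers had medians of 449 and 581 per kb, endothelial markers 184 and 217, stellate cell markers 186 and 249, lymphocyte markers 17.5 and 18.2, and cholangiocyte markers 12.8 and 21.0. No marker was at 0 in either table. The median log2 ratios of female to male were -0.13 for hepatocytes, 0.047 for Kupffer cells, 0.19 for endothelium, 0.38 for stellate cells, 0.062 for lymphocytes and 0.56 for cholangiocytes. These are medians of few genes, and only the stellate cell markers all had the same sign. Hepatocyte markers ran from -0.88 to 0.41, endothelial markers from -0.45 to 0.23 and cholangiocyte markers from -0.25 to 0.93. Immediate-early genes are expressed by many of these cell types, and the part of cell composition in the levels above was not tested.

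The transcripts of the 10 genes were also compared in structure. Jun, Junb and Ier2 have 1 exon in their canonical form, as do 4.13% of 20480 protein-coding genes, and 8 of the 10 lie within less than the median gene length of 20212 bases. Nr4a1 and Atf3 are the longer ones, at 20702 and 47749 bases. Gene length bears on how soon a transcript can be finished.

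The pentamer ATTTA, the core of AU-rich elements that mark short-lived mRNAs, was counted in the region after the stop codon. It was present in 9 of the 10 genes, all but Ier2, against 68.6% of 20480 genes. The longer TATTTAT was in 6 of 10, against 29.9%. Ier3 had 5 copies of the pentamer in 613 bases, or 8.16 per kb, which was at the 97.9th percentile of all genes. Nr4a1 had 5.48 per kb, Fos 4.91, Junb 4.12 and Jun 3.24.

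Atf3 had 2.53 per kb, Egr1 1.63, Midn 1.16 and Fosb 0.47. The median of the 10 was 2.89 per kb beside 1.32 over all genes, and 7 of the 10 were above the latter. Midn, with 2 copies in 1726 bases, was close to the middle of all genes. Fosb and Fos, the 2 Fos genes compared above, stood far apart in this respect.

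**Figure D5:**
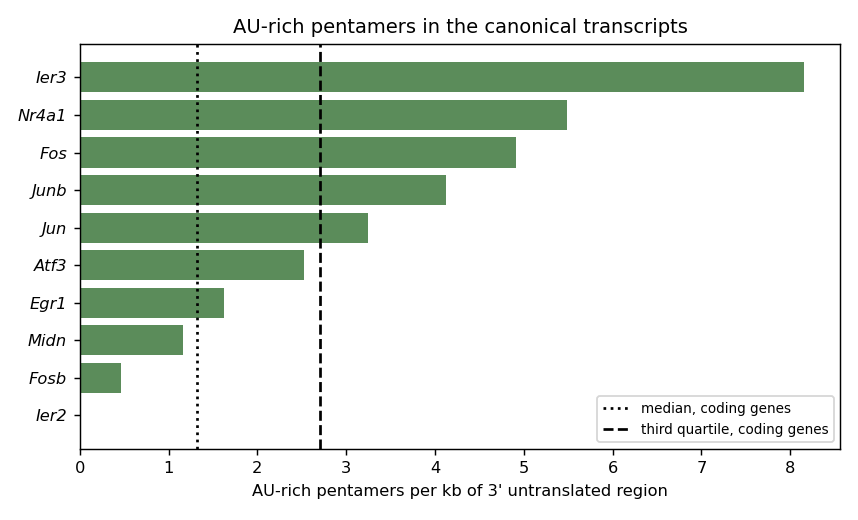
Copies of ATTTA per kb of the region after the stop codon in the canonical transcript of each gene. The dotted line is the median, 1.32, and the dashed line the upper quartile, 2.71, of 20480 protein-coding genes; bars of 5 of the 10 genes pass the dashed line and Ier2 has none.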

How the data were processed

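Livers of 12 mice were profiled by RNA-seq after depletion of ribosomal RNA. Per the labels and the study's methods, STAR 2.7 placed the reads on GRCm39, HTSeq counted them per Ensembl gene with its reverse strand setting, and the authors analysed each sex by itself in DESeq2. Each deposited signal value is the mean, over the 6 libraries of 1 sex, of counts that the authors divided by size factors. It is the only value column used, and it pools WT and Midn-T. The other columns of the authors' tables hold their own comparison of Midn-T with WT (log2 fold changes, standard errors, test statistics and p-values), and the ATAC-seq lists hold peaks with the direction of that comparison. Both were not used here. Depth per library is unknown, as is the spread between mice, so there are no errors, no tests and no paired fit.

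The summed means were 3.03e+07 in males and 3.08e+07 in females, and the 10 highest genes took 15.5% and 18.3% of them. The male table lists rows with a mean of 0 and the female table starts at a mean of 6.61. Means were divided by the union of annotated exons of GENCODE M39 (GRCm39), a later annotation than the one the authors counted on. Between the sexes, means were set to a sum of 1000000 for each table. Percentiles are among protein-coding genes. Motifs were searched on both strands. Scripts ran in Python 3.11.15 with numpy 2.4.6, pandas 2.3.3 and matplotlib 3.10.9, and were tested on simulated data. The 10 genes and the further lists were chosen with earlier results of these data known. Of each pathway list the 3 highest and 3 lowest levels per sex were named, apart from some that are not reported here, and genes named by their sex ratio, other than the 10, were chosen after their values were seen. Alternatives were other lengths, reference sets, scalings and windows.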

Additional observations from a re-analysis of the deposited data

How the results depend on the processing

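Without division by length, Midn ranked 3 among the 10 genes in males and 4 in females in place of the fifth place, and with the coding length of the canonical transcript, chosen after seeing the data, it ranked 4 in males. The median of the other immediate-early genes in males was 123 per kb when genes with a mean under 10 were left out. With matches on the gene's own strand only, 3 of 8 genes held the core TGACG, against 12.4% of windows. In the 500 bases before the canonical start, a window chosen after seeing the data, 2 of 10 genes held a CArG box, 1 the full cAMP response element and 5 a TATA box, against 2.76%, 1.96% and 40.9% of genes. The cause of each change follows from the length, gene set or window taken. The 3 other scalings each moved every log2 ratio of female to male by the same amount, -0.011, 0.049 or 0.023. These shifts were smaller than the ratio nearest to 0, which was 0.11 for Egr1. All 10 signs were therefore kept, which is no check of the genes against each other. The coding length of the RefSeq protein was not run. Leaving out single livers was not possible from means. No paired analysis was possible because the results come from no test.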
